A study of Mus musculus with 2 samples.

Results

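The 33 genes described here encode the enzymes that make cholesterol and fatty acids and the proteins that switch those enzymes on. They were chosen by symbol for their place in these pathways, and all 33 had a row among the 20034 genes of the table. They fall into 5 regulators, 7 enzymes of the mevalonate arm, 11 enzymes from squalene to cholesterol, 1 enzyme of cholesterol esterification and 9 enzymes of the fatty acid arm. The 27 enzymes of the mevalonate, squalene and fatty acid arms are called synthesis enzymes below. The cells were mouse induced macrophages (iMac), which the series title presents as fibroblasts turned into macrophages by c-Myc alone. The labels list a cDNA and an oligo library from the DNBelab C4 droplet system, both of wild type genotype and both from cells detached with EDTA. Since barcode names do not tell these libraries apart, the matrix counts as 1 sample, with neither replicates nor control cells. The sources used here do not state the fibroblast source, the way c-Myc was delivered or the number of cultures. All comparisons below are therefore between cells of this matrix, no test across samples is possible, and every interval covers counting error only.

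Cells make cholesterol from acetyl-CoA through mevalonate and squalene, and fatty acids through malonyl-CoA, and both routes are controlled by the SREBP transcription factors. SREBP proteins are held in the endoplasmic reticulum by Scap and the Insig proteins when sterol is plentiful, and move to the Golgi for cleavage when it is scarce. Macrophages also take up large amounts of lipid from other cells and lipoproteins, which they esterify, oxidise or export.

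After filters, 6751 of 6837 barcodes remained, holding 160363508 counts, and the median cell had 17178 counts from 3160 genes. All 16 macrophage marker genes reached 10 counts per 1000000 (CPM), whereas of 10 fibroblast markers 4 had a row and 0 reached that level. Of the adipocyte and hepatocyte markers, 2 genes each had a row, all below 0.04 CPM.

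The promoters shown here belong to Fads2, Fasn, Elovl6 and Acat2, enzymes whose levels differed between clusters of cells, and to Idi1 and Hmgcs1, shown for the motifs they hold. Each run is the 250 bases before the RefSeq gene start, on the gene's own strand, in the GRCm38.p6 build. The windows lie at chr19:10101504-10101753 (minus strand) for Fads2, chr11:120824548-120824797 (minus strand) for Fasn and chr3:129532136-129532385 (plus strand) for Elovl6. Those of Acat2, Idi1 and Hmgcs1 lie at chr17:12960726-12960975 (minus strand), chr13:8885356-8885605 (plus strand) and chr13:119690101-119690350 (plus strand). The GENCODE gene bounds begin further upstream than the RefSeq start in some cases, so that the Fads2 window lies almost wholly, and those of Idi1, Elovl6 and Acat2 partly, inside the GENCODE gene. Capitals mark every match, on either strand, to 4 motifs. The letters searched were TCACNCCAC for the sterol regulatory element, which SREBP proteins bind. For the E-box, another motif bound by SREBP proteins, the letters were CACGTG. The box of general promoter factors such as NF-Y was searched as CCAAT, and the GC box, bound by Sp1, as GGGCGG.
Fads2: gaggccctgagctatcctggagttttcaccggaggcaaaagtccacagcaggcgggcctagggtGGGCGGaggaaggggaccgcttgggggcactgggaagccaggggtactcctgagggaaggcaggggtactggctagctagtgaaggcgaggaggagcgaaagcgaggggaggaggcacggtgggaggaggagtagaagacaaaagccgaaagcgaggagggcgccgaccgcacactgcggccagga
Fasn: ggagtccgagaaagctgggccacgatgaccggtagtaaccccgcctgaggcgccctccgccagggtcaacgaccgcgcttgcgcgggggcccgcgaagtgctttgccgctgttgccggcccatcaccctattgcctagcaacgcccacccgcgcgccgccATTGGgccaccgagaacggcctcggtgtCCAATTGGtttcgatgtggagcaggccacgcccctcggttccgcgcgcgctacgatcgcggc
Elovl6: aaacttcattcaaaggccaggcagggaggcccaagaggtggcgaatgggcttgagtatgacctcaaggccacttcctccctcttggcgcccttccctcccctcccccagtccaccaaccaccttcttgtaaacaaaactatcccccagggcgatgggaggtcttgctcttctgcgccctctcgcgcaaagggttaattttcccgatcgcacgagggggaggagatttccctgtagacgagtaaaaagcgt
Acat2: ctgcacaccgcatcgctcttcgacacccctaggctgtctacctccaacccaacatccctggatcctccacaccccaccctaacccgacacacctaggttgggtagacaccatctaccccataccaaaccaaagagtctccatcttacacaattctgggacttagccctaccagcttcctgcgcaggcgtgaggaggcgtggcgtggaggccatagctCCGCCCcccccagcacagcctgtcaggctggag
Idi1: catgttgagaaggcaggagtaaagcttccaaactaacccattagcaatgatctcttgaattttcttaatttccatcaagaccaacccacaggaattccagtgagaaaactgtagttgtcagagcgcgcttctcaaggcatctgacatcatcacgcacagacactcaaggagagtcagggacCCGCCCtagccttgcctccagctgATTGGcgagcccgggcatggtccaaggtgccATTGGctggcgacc
Hmgcs1: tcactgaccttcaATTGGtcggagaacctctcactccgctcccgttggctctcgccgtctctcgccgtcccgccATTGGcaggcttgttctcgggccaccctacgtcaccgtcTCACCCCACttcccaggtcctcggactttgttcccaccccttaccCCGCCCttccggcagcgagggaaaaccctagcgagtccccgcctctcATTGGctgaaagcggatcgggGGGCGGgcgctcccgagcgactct
The Hmgcs1 window held the sterol regulatory element letters once, starting 137 bases before the gene start, together with 3 CCAAT boxes and 2 GC boxes upstream of the start. Fasn had 3 CCAAT matches, of which those starting 62 and 59 bases before the start overlap, one on each strand. Elovl6 had no match, and Fads2 and Acat2 had 1 GC box each. RefSeq promoters of 250 bases before to 50 bases after the start were found for 27 of the 33 genes; Fads1, Scd1, Scd2, Fdft1, Sqle and Fdps had no entry. Of these 27 genes, 22 (81.5%) held CCAAT, against 41.1% of all 27025 genes with a promoter. GGGCGG was present in 23 (85.2%), against 38.2% of all genes. TCACNCCAC was found in Hmgcs1 and Acsl1 (7.41%, against 1.44% of all genes) and CACGTG in Scap, Insig1, Hsd17b7, Sc5d and Dhcr7 (18.5%, against 8.09%). A gene counted when any of its promoters matched. Over single promoters, CCAAT was in 62.2% of 37 from these genes, against 37.4% of all 32851. The same shares were 75.7% against 35.7% for GGGCGG, 5.41% against 1.24% for TCACNCCAC and 16.2% against 7.15% for CACGTG. The 27025 genes were not limited to those expressed in these cells. The matches are letters only and say nothing of binding.

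Over all kept cells, 24 of the 33 genes reached 10 CPM, a level reached by 33.2% of all genes. This held for 3 of 5 regulators, 7 of 7 mevalonate enzymes, 6 of 11 enzymes from squalene to cholesterol, the esterification gene and 7 of 9 fatty acid enzymes. The level at 10 CPM was not a natural gap, as Acsl1 (9.58 CPM) lay just below it and Cyp51 (11.5 CPM) just above. With a threshold of 20 CPM the count was 12, and with 5 CPM it was 30.

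**Figure D1:**
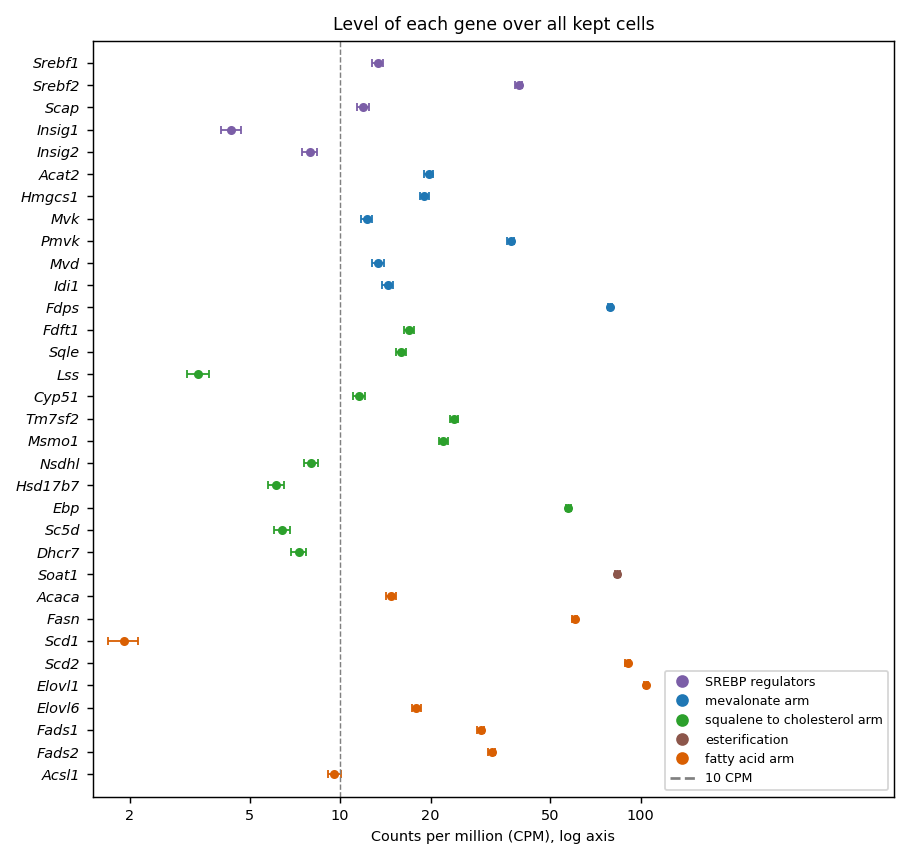
Level of each of the 33 genes over all 6751 kept cells, in CPM on a log axis, with exact 95% Poisson intervals as bars and the 10 CPM threshold as a dashed line. Elovl1 is the furthest to the right at 105 CPM and Scd1 the furthest to the left at 1.90 CPM, while all 7 mevalonate enzymes lie right of the line.

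Among the regulators, Srebf2, whose product acts mainly on cholesterol genes, was at 39.3 CPM (95% Poisson interval 38.3 to 40.3). Srebf1, whose product acts mainly on fatty acid genes, was at 13.3 CPM (12.8 to 13.9), and the escort protein gene Scap at 11.9 CPM. The retention factors Insig1 and Insig2 were at 4.33 and 7.91 CPM, below the threshold. To set genes in order, CPM was divided by the exonic length of the gene in kilobases; whether counts scale with length in these libraries was not tested. On that scale Srebf2 came first of the 5 at 5.47 CPM per kb. Srebf1 (2.37) and Insig2 (2.28) were close to each other, and Scap (1.60) and Insig1 (1.399) followed.

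In the mevalonate arm, Fdps, which makes farnesyl diphosphate, was at 79.2 CPM (77.8 to 80.6), and 60.2% of cells had a count. Pmvk, the phosphomevalonate kinase, was at 37.0 CPM, Acat2, which joins acetyl-CoA units, at 19.7 CPM and Hmgcs1, the HMG-CoA synthase, at 19.1 CPM. The isomerase Idi1 was at 14.4 CPM, the decarboxylase Mvd at 13.4 CPM and mevalonate kinase Mvk at 12.2 CPM. Per kilobase the order began with Pmvk (21.6) and Fdps (18.8), and Hmgcs1 (4.15) and Idi1 (4.11) were the lowest and close to each other.

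From squalene to cholesterol, Ebp, a sterol isomerase gene on chromosome X, stood apart at 57.4 CPM (56.3 to 58.6) and 24.9 CPM per kb. The next per kilobase was the sterol reductase gene Tm7sf2 at 5.43. Tm7sf2, the methylsterol oxidase gene Msmo1, squalene synthase (Fdft1), squalene epoxidase (Sqle) and the demethylase gene Cyp51 were at 23.9, 22.1, 16.9, 15.9 and 11.5 CPM. The 5 genes under 10 CPM were Nsdhl (8.02 CPM), Dhcr7 (7.29), Sc5d (6.41), Hsd17b7 (6.12) and Lss (3.36). Lss, the cyclase that closes the sterol rings, was also lowest per kilobase (0.312), with a count in 7.08% of cells (exact interval 6.48 to 7.72%). Soat1, which esterifies cholesterol for storage in droplets, was at 83.7 CPM (82.3 to 85.2) and had a count in 59.96% of cells.

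In the fatty acid arm, Elovl1, an elongase of very long chains, was at 105 CPM (103 to 106), the highest of all 33 genes in CPM and per kilobase (38.3). The stearoyl-CoA desaturase gene Scd2 was at 90.6 CPM (89.1 to 92.0), whereas its neighbour Scd1, which lies 87590 bases away on chromosome 19, was at 1.90 CPM (1.69 to 2.13). Per kilobase Scd2 was 42.6-fold above Scd1. The transcripts of these paralogs share little sequence, with 2.68% of the 50-base stretches of Scd2 found in Scd1. Fatty acid synthase (Fasn) was at 60.3 CPM, the desaturase genes Fads2 and Fads1, neighbours on chromosome 19 as well, at 32.0 and 29.3 CPM, the elongase gene Elovl6 at 18.0 CPM and acetyl-CoA carboxylase (Acaca) at 14.8 CPM. The acyl-CoA synthetase gene Acsl1 was at 9.58 CPM.

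Some of these levels could include reads of other genes. Of the 50-base stretches of the main transcript, 86.4% in Fdps, 52.6% in Acaca, 45.9% in Acat2, 21.3% in Idi1 and 10.9% in Fdft1 also occur in another gene's transcript. For Acat2 that gene is Acat3, itself counted at 0.873 CPM, while the partners of Fdps, Acaca, Idi1 and Fdft1 with most shared sequence had no row. Exons of Fdft1 overlap those of Ctsb on the opposite strand over 774 bases, and Ctsb, a cathepsin gene, stood at 868 CPM. Exons of Tm7sf2 overlap Vps51 on the same strand over 532 bases. The sources used here do not say how the counting treated strand and repeated sequence, so these levels are uncertain.

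Free RNA in droplets gives counts in cells that do not express a gene, and no cells known to lack these genes were identified, so that background was not estimated. In the 6085 cells that could be thinned to 1900 counts (666 were shallower), Elovl1 had a count in 17.1% of cells, Scd2 in 15.4%, Fdps in 13.3% and Scd1 in 0.214%. At this depth 48.6% of cells had a count for any of the 18 sterol enzymes and 48.2% for any of the 9 fatty acid enzymes.

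To see how the genes vary among cells, cells were clustered without these genes, the other lipid lists and the marker lists, which gave 9 clusters of 1581 to 82 cells. Clusters are named here by number and leading genes, and the 8 with at least 100 cells were each set against all other cells. A gene was called when its CPM differed at least 1.5-fold with 1 CPM added to both sides, among the 6656 genes at 10 CPM or more. That set holds 24 of the 33 genes and 20 of the 27 synthesis enzymes. The clustering used genes that vary together with these, so the differences describe the clusters and test nothing.

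**Figure D2:**
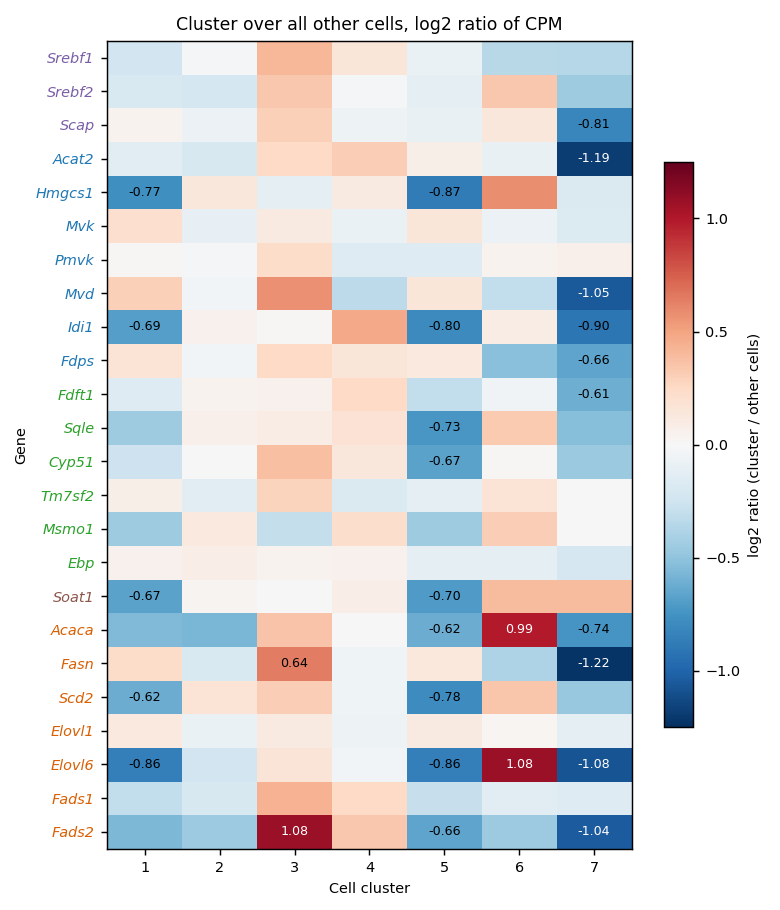
Log2 ratio of CPM of clusters 1 to 7 over all other cells (columns) for the 24 genes at 10 CPM or more (rows, coloured by arm as in the plot of levels); numbers are printed where a gene passes 1.5-fold. Cluster 7 has 10 such genes, all lower, and cluster 3 has Fasn (0.64) and Fads2 (1.08), both higher.

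Cluster 7 had the most synthesis genes at least 1.5-fold lower after cluster 8, which has few counts. It held 323 cells with a median of 18390 counts, led by Ms4a7, Folr2, Fcgr4, Ccl6 and Fabp4, genes of mature macrophages. Here 10 of the 24 genes were lower (16.9% of all genes tested) and 0 were higher (11.3% of all genes tested), where 28.2% of all genes passed either way, and 21 of the 24 ratios were below 0. The median log2 ratio was -0.47 over the 24 genes and -0.12 over all genes tested.

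Fasn showed the largest difference, with 26.0 CPM (22.5 to 29.9) in cluster 7 against 62.0 CPM (60.8 to 63.3) in the other cells, a log2 ratio of -1.22 (counting interval -1.47 to -1.05). Acat2 was at 8.36 CPM in cluster 7 against 20.3 CPM in the other cells (-1.19), and Elovl6 at 8.23 against 18.4 CPM (-1.08). Mvd stood at 6.14 CPM in cluster 7 and 13.7 CPM in the other cells (-1.05), and Fads2 at 15.4 and 32.8 CPM (-1.04). The Poisson intervals of the 2 sides did not overlap for any of these 5 genes, which were named for their large ratios. The share of all genes with such intervals is not given here. Idi1 (-0.90), Scap (-0.81), Acaca (-0.74) and Fdps (-0.66) were lower as well. Fdft1 passed 1.5-fold too (-0.61), but its log2 ratio was -0.0062 with the mean over cells and it passed under 4 of 10 alternatives. By arm this was 1 of 3 regulators, 4 of 7 mevalonate enzymes, 1 of 6 enzymes from squalene to cholesterol and 4 of 7 fatty acid enzymes. Pmvk (0.06), Tm7sf2 and Msmo1 were at the same level on both sides, while Soat1 was at 109 CPM in cluster 7 against 82.5 CPM in the other cells (0.39, below 1.5-fold).

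Several genes that move and export sterol were higher in the same cells. Of the 9 genes of the uptake, transport and efflux list at 10 CPM or more, 4 were higher (11.3% of all genes tested) and 0 lower (16.9% of all genes tested), and the median over the 9 was 0.57 (log2). Apoe, the lipoprotein component that carries cholesterol out of macrophages, was at 5961 CPM in cluster 7 against 1494 CPM in the other cells (1.995). The lysosomal lipase gene Lipa, which frees cholesterol from its esters, was at 206 against 53.2 CPM (1.93). The exporter gene Abcg1 was at 71.9 against 24.2 CPM (1.53), and Npc2, which hands cholesterol out of lysosomes, at 968 against 451 CPM (1.10). In the list of SREBP processing and sterol sensing, 3 of 9 genes were higher (11.3% of all genes tested), Por (112 against 39.2 CPM), Npc1 (29.8 against 14.96 CPM) and Cyb5r3 (105 against 59.1 CPM). Por and Cyb5r3 encode electron donors of the route's oxidative steps, and Npc1 a lysosomal cholesterol transporter. The 1 lower gene (16.9% of all genes tested) was Stard4, a sterol carrier and known SREBP target, at 6.53 against 15.1 CPM (-1.10).

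**Figure D3:**
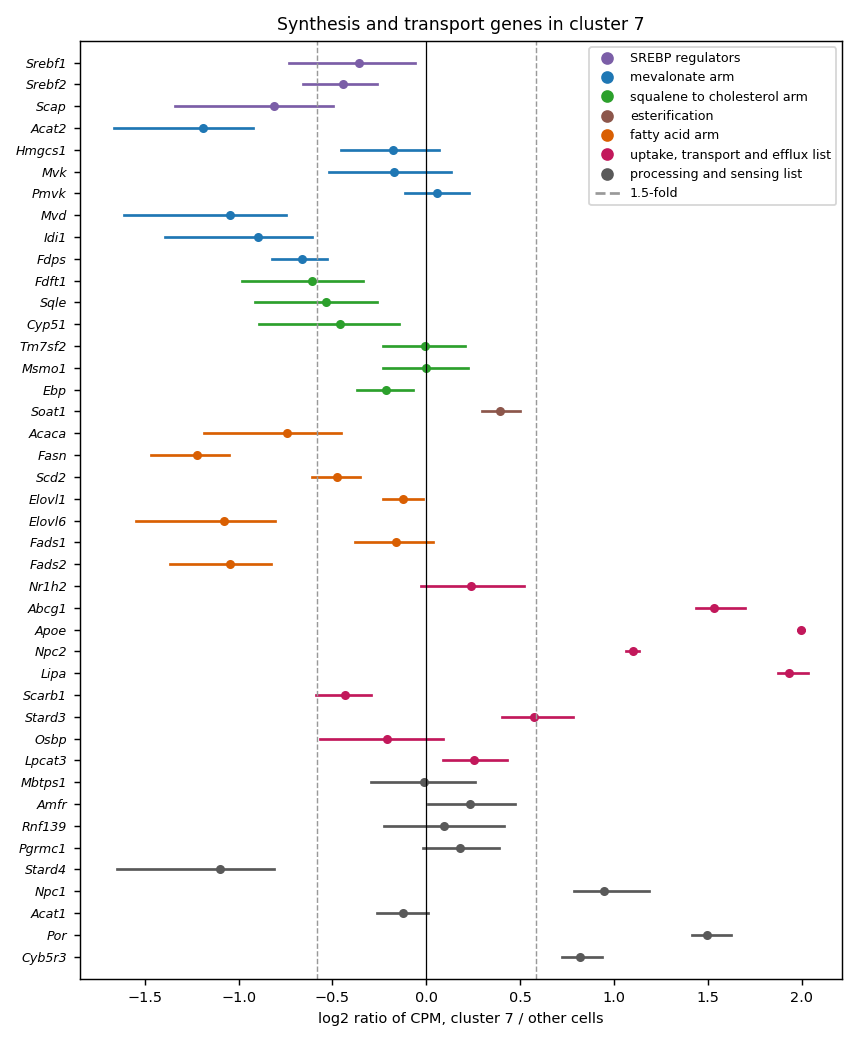
Log2 ratio of CPM of cluster 7 over all other cells for the 24 genes at 10 CPM or more and for 2 lists of sterol handling genes, with exact counting intervals as bars (drawn without the added 1 CPM) and dashed lines at 1.5-fold. Synthesis genes lie mostly left of 0, down to -1.22 for Fasn, and Apoe (1.995), Lipa (1.93) and Abcg1 (1.53) lie furthest right.

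Other gene groups moved with cluster 7. All 16 macrophage markers were above the other cells there, 13 of them at least 1.5-fold, and their summed level was 24077 CPM in cluster 7 against 13318 CPM in the other cells. At least 1.5-fold lower were 18 of 20 Myc target genes, 19 of 20 genes of G2 and M and 12 of 19 of S phase. Myc itself was at 24.7 CPM in cluster 7, 20.2 CPM in cluster 1 and 26.3 CPM in cluster 5. In the other clusters compared it was at 34.6 to 67.7 CPM. The part of these gene groups and of Myc in the lower synthesis genes was not tested. The number of synthesis enzymes called lower, 9 of 20, ran from 4 with a pseudocount of 10 CPM to 10 with abundant genes left out of the total. When all variable genes entered the clustering, cluster 7 had no counterpart of its own (Jaccard index 0.172 with the closest cluster, of 1630 cells), and there 2 were lower.

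Fads2 and Fasn had their highest levels of the 8 clusters in cluster 3. It held 1257 cells with a median of 17063 counts and was led by Ly6c2, Camk1d, Tmtc2, Jarid2 and D130009I18Rik. Fads2, the desaturase that starts the making of polyunsaturated fatty acids, was at 58.2 CPM (55.3 to 61.3) in cluster 3 against 27.0 CPM (26.2 to 27.9) in the other cells, a log2 ratio of 1.08 (1.02 to 1.19). Fasn was at 86.5 CPM (82.9 to 90.2) against 55.3 CPM (54.1 to 56.6), a log2 ratio of 0.64. These 2 of the 24 genes were higher (0.992% of all genes tested) and 0 were lower (6.04% of all genes tested), where 7.03% of all genes passed either way. Ratios of 21 of the 24 genes were above 0, with a median of 0.25 against -0.08 over all genes tested. Srebf1 and Srebf2 were at 17.1 against 12.6 CPM and 47.8 against 37.7 CPM, and Fads1 was at 37.7 against 27.7 CPM, all below 1.5-fold. Gm42418 was at 81711 CPM in cluster 3, against 37374 to 77712 CPM in the other clusters compared, and the mitochondrial share was 0.296%, lower than in all of them but cluster 8. Their part in the higher levels was not tested. No gene of the transport or sensing lists passed 1.5-fold in cluster 3. The monocyte gene Ly6c2 (87.0 CPM) and the granule protease gene Prtn3 (194 CPM) were high in these cells, and 7 of 16 macrophage markers were lower.

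Cluster 3 was also compared with cluster 7, of nearly the same depth, a comparison chosen once the values were known. Between them 15 of the 24 genes were at least 1.5-fold higher in cluster 3 (18.4% of all genes tested) and 0 were lower (17.4% of all genes tested). Fads2 was at 58.2 CPM in cluster 3 against 15.4 CPM in cluster 7 (1.85, counting interval 1.65 to 2.20), and Fasn at 86.5 against 26.0 CPM (1.70, 1.53 to 1.95). Mvd was at 18.9 against 6.14 CPM (1.48), Acat2 at 23.0 against 8.36 CPM (1.36), Elovl6 at 19.8 against 8.23 CPM (1.17) and Scap at 14.4 against 6.53 CPM (1.03). Acaca (1.003), Idi1 (0.88), Fdps (0.85), Cyp51 (0.75), Scd2 (0.71) and Sqle (0.59) were higher as well. All 3 regulators tested were among the 15, with Srebf2 at 47.8 against 29.0 CPM (0.70) and Srebf1 at 17.1 against 10.3 CPM (0.68). Soat1, at 83.3 CPM in cluster 3 against 109 CPM in cluster 7, and Msmo1, at 18.4 against 22.1 CPM, were the 2 genes below 0. Apoe (1256 against 5961 CPM), Lipa (45.6 against 206 CPM), Por (32.3 against 112 CPM) and Abcg1 (22.9 against 71.9 CPM) were lower in cluster 3, as were Npc2, Stard3, Npc1 and Cyb5r3. Scarb1, a lipoprotein receptor gene (82.9 against 50.8 CPM), and Stard4 (17.7 against 6.53 CPM) were higher. For Fdft1 (0.63) the mean over cells gave a log2 ratio of -0.00067, so its direction is not settled. Myc targets (18 of 20 higher) and S phase genes (15 of 19 higher) moved in the same direction, and their part was not tested.

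Cluster 6, of 512 cells with 1274 CPM of the nuclear noncoding RNA Malat1 against 40.8 CPM elsewhere, had 2 of the 24 genes higher (23.5% of all genes tested) and 0 lower (1.13% of all genes tested), where 24.6% of all genes passed either way. These were Elovl6, at 33.9 CPM against 15.5 CPM in the other cells (1.08), and Acaca, at 26.6 against 12.9 CPM (0.99). With the median of all genes subtracted, Elovl6 (0.84) and Acaca (0.74) stayed past 1.5-fold, and with thinned counts Acaca did not (0.48). Their gene spans are 106141 and 271980 bases. In cluster 6 the median log2 ratio of all genes, in 4 equal bins from short to long gene span, was -0.04, 0.16, 0.34 and 0.66. At the same time 19 of 20 genes of G2 and M were higher there. The part of gene span and of the cell cycle in the higher Elovl6 and Acaca was not tested. The median over the 24 genes was 0.03, below the 0.25 of all genes tested.

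In clusters 1 and 5 synthesis genes were lower together with a large share of all genes. Cluster 1, of 1581 cells with a median of 5450 counts, had 5 of 24 genes lower (28.8% of all genes tested), namely Elovl6, Hmgcs1, Idi1, Soat1 and Scd2, and 0 higher (0.135%). Elovl6 was at 9.95 CPM in cluster 1 against 18.8 CPM in the other cells (-0.86), and Hmgcs1 at 11.3 against 19.9 CPM (-0.77). Hmgcs1 did not pass 1.5-fold with thinned counts (-0.17) or with the mean over cells (-0.36). Cluster 5, of 615 cells led by histone genes such as Hist1h4h, had 9 lower (35.9% of all genes tested) and 0 higher (0.646%), where 36.5% passed either way. The lowest ratios there were those of Hmgcs1, at 10.3 CPM in cluster 5 against 19.8 CPM in the other cells (-0.87), and Elovl6, at 9.83 against 18.6 CPM (-0.86). The others were Idi1 (-0.80), Scd2 (-0.78), Sqle (-0.73), Soat1 (-0.70), Cyp51 (-0.67), Fads2 (-0.66) and Acaca (-0.62). Ribosomal protein genes took 38.4% of the counts in cluster 1 and 39.1% in cluster 5, and the longest of the 4 bins of genes had median ratios of -0.69 in cluster 1 and -0.75 in cluster 5. With the median of all genes subtracted, 0 synthesis enzymes were lower in either cluster.

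Clusters 2 (1297 cells) and 4 (836 cells) had 0 of the 24 genes past 1.5-fold in either direction. Of all genes tested, 0.436% were higher and 2.52% lower in cluster 2 (2.96% either way), and 2.28% were higher and 0.856% lower in cluster 4 (3.14% either way). In cluster 4, led by the replication histone gene Hist1h1b, the largest ratio was that of Idi1, at 18.7 CPM (log2 ratio 0.48). Cluster 8 held 248 cells with a median of 2241 counts, so its 15 genes called lower (20% of all genes tested, 40.4% either way) rest on few counts. Its 2 genes called higher (20.4% of all genes tested) were Idi1, with 31 counts (38.9 CPM, interval 26.4 to 55.2) against 14.3 CPM in the other cells, and Mvk, with 17 counts. Of the 15, Scap and Cyp51 had 1 count each in that cluster, and Srebf1, Srebf2, Sqle, Msmo1, Acaca, Elovl6 and Fads1 had 7 or fewer. Fads2, Soat1, Fasn, Ebp, Scd2 and Elovl1 had 13, 14, 21, 22, 27 and 41 counts. Of the 20 synthesis enzymes, 11 were called lower in cluster 8, 10 with a pseudocount of 10 CPM and 13 with thinned counts. By arm, 7 of 7 fatty acid enzymes, 4 of 6 from squalene to cholesterol and 0 of 7 mevalonate enzymes were lower. Soat1 was at 17.6 CPM in cluster 8 against 84.1 CPM in the other cells (-2.20).

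Cell cycle classes were cut from counts of the S and the G2 and M phase lists in cells thinned to 1900 counts. There were 473 cells with no count of either list, 1289 S phase cells (at least 3 S counts and fewer than 3 G2 and M counts) and 2191 G2 and M cells (at least 3 such counts). The other 2132 cells had 1 or 2 counts of a list and were in no class, and 966 and 687 cells had 2 and 3 G2 and M counts, so the classes are ranges and not types. Fads2 was at 14.0 CPM (11.9 to 16.5) in cells without cycle counts, 44.3 CPM (42.0 to 46.6) in S phase cells and 32.0 CPM (30.7 to 33.4) in G2 and M cells. Acat2 was at 11.7, 25.5 and 20.02 CPM and Elovl6 at 8.77, 19.2 and 21.0 CPM in the same order. For these 3 genes the intervals of both cycling classes lay above that of the cells without cycle counts. How many of all genes do so is not given here.

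In S phase cells over cells without cycle counts, 6 of the 24 genes were higher (11.6% of all genes tested) and 0 lower (3.02% of all genes tested). They were Fads2 (log2 ratio 1.59, counting interval 1.42 to 1.91), Acat2 (1.06), Elovl6 (1.05), Sqle (0.66), Fdps (0.62) and Idi1 (0.62). Fdps was at 94.4 CPM (91.1 to 97.7) in S phase cells against 60.9 CPM (56.3 to 65.7) in cells without cycle counts. In G2 and M cells over cells without cycle counts, 4 were higher (23% of all genes tested) and 0 lower (2.93% of all genes tested, 25.9% either way), namely Elovl6 (1.17), Fads2 (1.14), Acaca (0.90) and Acat2 (0.72). For Acaca the log2 ratio was 0.04 with thinned counts and 0.07 within cluster 3, and within cluster 3 Elovl6 (0.51) and Acat2 (0.56) did not pass 1.5-fold either. Between the cycling classes, G2 and M over S, 0 of the 24 genes passed 1.5-fold (5.05% of all genes tested higher, 0.481% lower, 5.53% either way). Apoe was lower in both cycling classes, at 1507 CPM in S phase cells and 1356 CPM in G2 and M cells against 3436 CPM in cells without cycle counts.

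**Figure D4:**
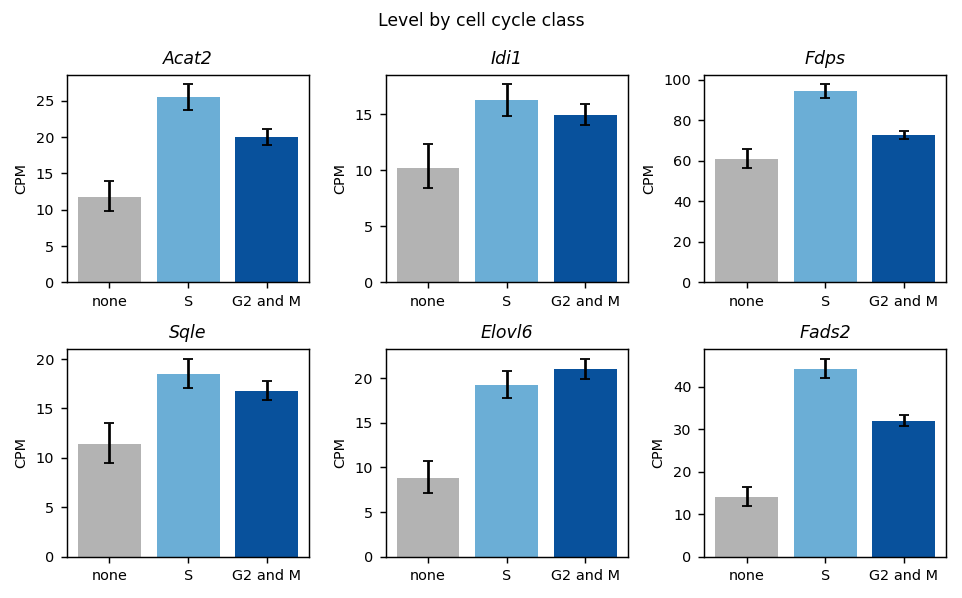
CPM of the 6 synthesis genes past 1.5-fold in S phase cells, by cell cycle class (none, 473 cells; S, 1289 cells; G2 and M, 2191 cells), with exact 95% Poisson intervals. Fads2 has 14.0, 44.3 and 32.0 CPM in that order, and each of the 6 genes is lowest in the cells without cycle counts.

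Cells without cycle counts were 35.1% cluster 2, 26.8% cluster 1 and 16.7% cluster 7, whereas S phase cells were 2.87% and G2 and M cells 1.78% cluster 7. Within cluster 3 alone, which had 335 S phase cells, 375 G2 and M cells and 60 cells without cycle counts, Fads2 was at 24.7 CPM (16.4 to 35.8) in cells without cycle counts, 68.5 CPM (62.7 to 74.6) in S phase cells and 60.2 CPM (55.0 to 65.7) in G2 and M cells. There 8 of 24 genes were higher in S phase cells (13.6% of all genes tested) and 1 was lower (3.29%), and in G2 and M cells 4 were higher (16%) and 1 lower (3.34%). The lower gene was Mvd, at 16.7 CPM (126 counts) in S phase cells against 33.6 CPM (38 counts) in cells without cycle counts (-0.97), and it was lower in G2 and M cells as well (-0.86). For Sqle the direction was reversed within cluster 3 (-0.18). Fads2 stayed past 1.5-fold under all 10 alternatives tried, with log2 ratios of 1.18 to 1.86 for S phase cells. Fdps and Sqle passed under 3 of 10 alternatives each for S phase cells, and Idi1 under 4. Without cluster 7, 3 of the 20 synthesis enzymes were called in S phase cells.

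Covariation was described over 93 groups of like cells (median 60 cells, at least 300000 counts each), made without these genes. The points share 1 library, so the values of Pearson's r are descriptions. Over the 190 pairs of synthesis enzymes the median r was 0.26, against 0.19 for all pairs of genes at 10 CPM or more, whose central 90% ran from -0.40 to 0.64. Pairs within the fatty acid arm had a median of 0.47 (21 pairs), those from squalene to cholesterol 0.31 (15 pairs) and those within the mevalonate arm 0.09 (21 pairs). The closest pairs were Acaca with Elovl6 (0.75), Idi1 with Scd2 (0.74), Sqle with Scd2 (0.72) and Idi1 with Elovl6 (0.69). Scd2 with Elovl6 (0.68) and Fasn with Fads2 (0.67) followed. Mvk, at 12.2 CPM, had r below 0 with most of the others, and Soat1 had r of -0.42 with Fdps.

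**Figure D5:**
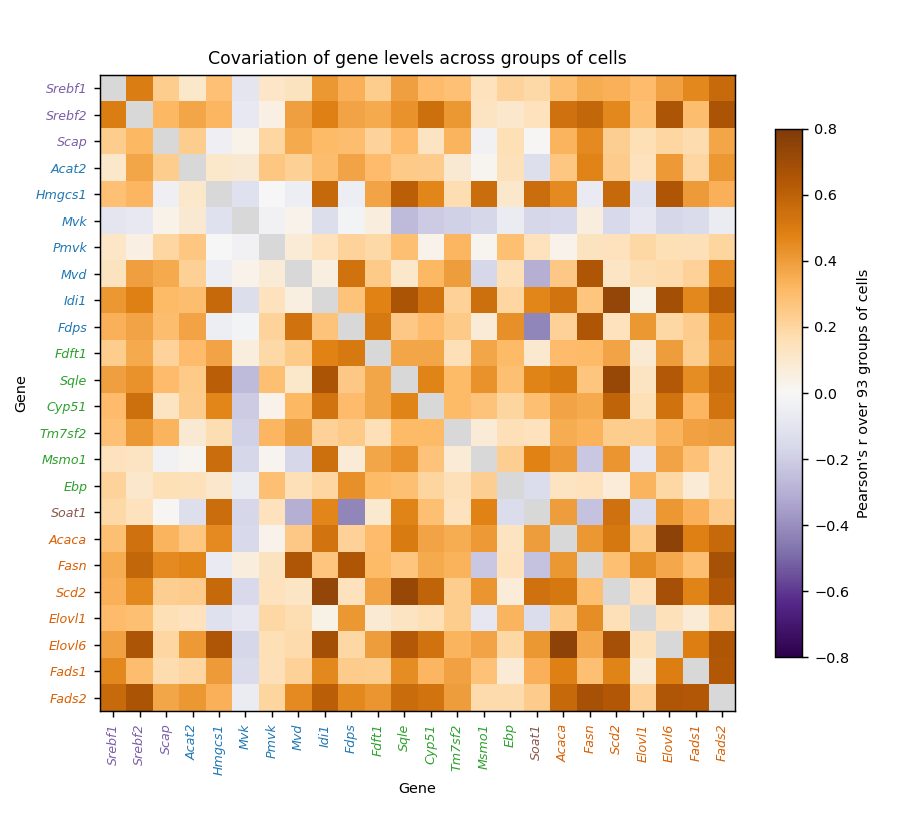
Pearson's r of log2(CPM + 10) for each pair of the 24 genes over 93 groups of cells, with gene names coloured by arm and the diagonal in grey. The block of Elovl6, Scd2, Fads2, Idi1 and Sqle is dark orange (Idi1 with Scd2 at 0.74), whereas the row of Mvk is pale or violet.

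The mean of the 13 sterol enzymes over these groups had r of 0.78 with the mean of the fatty acid arm, 0.73 with Myc targets, 0.63 with the S phase list, 0.35 with the G2 and M list and -0.42 with macrophage markers. Its r with the mean counts per cell (log2) was 0.23 and with the ribosomal protein share -0.22. Among 4551 other genes at 20 CPM or more, whose median r was 0.32, the 10 most alike were Hnrnpa1 (0.80), Cct8, Tkt, Ptma, Ddx39b, Pabpc4, Atp5a1, Eif4ebp2, Clns1a and Fbl (0.78). They include RNA-binding proteins, a chaperonin subunit, transketolase and the nucleolar methyltransferase fibrillarin. The 33 genes described here were left out of this ranking, so none of them could appear in it. The 5 least alike were Tmem256 (-0.77), Ptpn18 (-0.72), the myeloid adaptor gene Tyrobp (-0.70), Lgals1 (-0.70) and S100a1 (-0.67).

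The spread between single cells could not be judged at this depth, since low means hold the variance-to-mean ratio near 1 whatever the true spread. In thinned cells, the 10 genes with a mean of at least 0.05 counts had a median variance-to-mean ratio of 1.07, against 1.05 over 3716 genes. Fads2 (1.14) was the highest of the 10 and Fads1 (1.01) the lowest. With cells split into 4 equal bins by total counts, 1 of the 24 genes, Idi1, differed at least 1.5-fold between its highest and lowest bin (1.63-fold), and the median over the 24 was 1.202-fold. The same values were not computed for all genes, so they do not set these genes apart from others.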

How the data were processed

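Single-cell RNA of wild type induced macrophages was analysed from 1 matrix. The deposited values are raw counts per gene and barcode, written by PISA 0.12, per the file headers. The submitters' processing notes name Cell Ranger and mm10 without a role. Aligner, annotation, strand setting, cell calling and whether counts are of molecular identifiers: not given in the sources used here. Coordinates and lengths come from GENCODE M21 (GRCm38), promoters from RefSeq.

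Barcodes under 500 genes (47) or above 15% mitochondrial counts (50) were left out, 86 in all. Kept cells had 1001 to 192369 counts. Doublets were neither called nor removed. Levels are counts summed over cells per 1000000 (CPM), with exact Poisson intervals, shares with exact Clopper-Pearson intervals and ratios with exact conditional binomial intervals at 95%, all for counting error only. With 1 sample no p-value was computed. Clusters came from scanpy 1.11.5 (2000 variable genes, 30 components, 15 neighbours, Leiden resolution 0.5) with 198 listed genes left out. Cells were thinned to 1900 counts for cycle classes. Groups of about 50 cells for covariation came from k-means (scikit-learn 1.9.0), and those under 300000 counts were left out. The steps were tested on simulated data.

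The genes and lists were chosen with earlier results of these data known. Text names, in each arm, the highest and lowest genes and those past 1.5-fold; from other lists the highest and those past 1.5-fold in cluster 7, in cluster 3 against it and in cycle classes, with exceptions (other comparisons of these lists are not reported, and others named were chosen after their values were seen); the 10 most and 5 least alike genes; and 5 leading genes of the clusters discussed at length. In the cycle comparisons within cluster 3, genes past 1.5-fold are not all named. Of the motifs, CCAAT and GGGCGG were added to the planned ones. Alternatives covered pseudocount, totals, thinning, deepest cells, clustering and level threshold. The comparison of cluster 3 with cluster 7, the S phase comparison, the values within cluster 3 or without cluster 7, the minimum of 300000 counts and the subtraction of the all-gene median were added after seeing the data.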

Additional observations from a re-analysis of the deposited data

How the results depend on the processing

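No paired analysis was possible because the matrix is 1 sample, and no replicate could be left out. Of 197 alternative values for the counts of genes reported, 163 stayed within 1.5 times the value given. Many of the 163 were counts of 0 that stayed at 0, for which a fold has no meaning. With a pseudocount of 10 CPM, synthesis enzymes called lower were 0 in cluster 1, 1 in cluster 5 and 4 in cluster 7; those called higher were 1 in cluster 3 and 1 in cluster 8; and those changed in G2 and M cells and S phase cells against cells without cycle counts were 2 and 3. With thinned counts, 1 was higher in each of clusters 1, 2 and 5, and 5 in cluster 3; 1 was lower in each of clusters 2 and 4, 5 in cluster 5 and 2 in cluster 6; and 7 were changed in G2 and M cells. With the mean over cells, 1 was lower in cluster 1, 1 in cluster 2, and 1 higher in cluster 8. With abundant genes left out of the total, 1 was lower in cluster 2, 4 in cluster 5 and 1 in cluster 6. With the median of all genes subtracted, 1 was higher and 0 lower in cluster 1, 0 were lower in cluster 5, 3 were lower in cluster 6, and 3 were changed in S phase cells. Without cluster 7, 3 were changed in S phase cells. At resolution 1.0, 8 were lower in the counterpart of cluster 1. With all variable genes in the clustering, 2 were lower in the counterparts of clusters 1, 2 and 7 each, and 5 in that of cluster 5. The cause of these shifts was not tested. At 20 CPM, 12 of the 33 genes passed. The median r of synthesis enzymes was 0.17 to 0.25 with other group sizes. Of 500 alternative ratios of single genes, 2 changed direction: Fdft1, cluster 3 against cluster 7, with the mean over cells (-0.00067), and Sqle, S phase cells against cells without cycle counts, within cluster 3 (-0.18). Depth limits cluster 8 (797635 counts) and the genes under 10 CPM most.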

Other observations

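Other lipid genes showed which neighbouring routes were represented. Of 25 further genes of fatty acid and lipid synthesis, all with a row, 11 reached 10 CPM. Tecr, the last enzyme of the elongation cycle, was at 165 CPM, its partner Hsd17b12 at 66.9 CPM, the elongation cycle dehydratase gene Hacd2 at 48.2 CPM and the citrate carrier gene Slc25a1 at 46.0 CPM. Of genes chosen after their values were seen, Acacb, the mitochondrial form of acetyl-CoA carboxylase, was at 0.281 CPM, malic enzyme (Me1) at 0.848 CPM and the lipogenic transcription factor gene Mlxipl at 0.249 CPM. The triglyceride synthesis genes Dgat1 and Dgat2 were at 5.63 and 8.97 CPM. In cluster 7, 1 of the 11 was higher (11.3% of all genes tested), namely Agpat3, at 66.6 CPM against 41.3 CPM in the other cells. Also 1 of the 11 was lower (16.9% of all genes tested), namely Mecr, at 29.4 against 44.9 CPM.

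Of 16 genes of fatty acid oxidation, 12 reached 10 CPM, led by Etfb (401 CPM), which passes electrons from the oxidation enzymes, Ech1 (136 CPM) and the thiolase gene Acaa2 (133 CPM). In cluster 7, 10 of the 12 were above the other cells, and the median over the 12 was 0.20 (log2). Cluster 3 over cluster 7 gave lower values for the oxidation gene Acadm (31.1 against 49.0 CPM) and the carnitine transferase gene Cpt1a (18.8 against 29.0 CPM), and a higher one for Eci1 (64.8 against 39.3 CPM). In S phase and in G2 and M cells, 0 of the 12 oxidation genes passed 1.5-fold against cells without cycle counts, where 14.6% and 25.9% of all genes tested passed either way.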
